A study of Caenorhabditis elegans with 4 samples.

Results

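LET-418 is the Caenorhabditis elegans homologue of Mi-2/CHD4, an ATPase that moves nucleosomes along DNA. It works in the NuRD complex, where it is joined with histone deacetylases, and in the MEC complex with the zinc-finger protein MEP-1, and worms need it for larval development and to keep germline genes silent in somatic cells. A remodeller of this kind can sit at a single regulatory element, which gives a narrow ChIP-seq peak, or along a longer stretch of chromatin, which gives a broad one. The regions described here are the broad LET-418 domains, defined as peaks wider than 1000 bp in the list deposited for the series as a whole. There were 393 such domains among 13690 series-wide peaks, or 2.87% (95% Wilson interval 2.60 to 3.16), and the other 13297 peaks, of 1000 bp or less, are called the narrower peaks. The domains were chosen by their measured width alone, in the series-wide list, so width is given as a description and nothing is inferred from it.

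ChIP-seq sequences the DNA that is recovered with a crosslinked protein, and a peak caller turns the reads into regions of enrichment. The material was whole wild-type N2 larvae of stage L3, a mixed population of males and hermaphrodites grown at 20 °C, and LET-418 was recovered with an affinity-purified rabbit polyclonal antibody, SDQ2342. The series has 4 samples, with 2 from ChIP and 2 of input DNA, and all 4 share strain, genotype, stage and temperature. Peak lists came for replicate 1 (1887 peaks), replicate 2 (19594 peaks) and the whole series, on the assembly WS220 (ce10), which the coordinates below follow. The replicate 2 list was 10.4 times as long as that of replicate 1. No read counts come with the lists, which leaves the depth behind a peak unknown, and whether the replicates were separate cultures is not stated. Whole larvae contain all tissues, so a domain present in few cells and a weak domain present in all cells cannot be told apart. Peaks of 1 list are not replicates of a condition. Shares are therefore given with 95% Wilson intervals that cover counting error over peaks only, and domains and narrower peaks were compared without a test.

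Most domains were only moderately wide. Their median width was 1301 bp (quartiles 1115 and 1678), against 242 bp (188 and 353) for the narrower peaks. Of the 393 domains, 90 were at most 1100 bp wide, 131 exceeded 1500 bp, 63 exceeded 2000 bp and 9 exceeded 4000 bp. Together they covered 616639 bp, which was 13.4% of all bases in series-wide peaks. The limit of 1000 bp fell within a continuous range of widths. The narrowest domains were IV 2233614 to 2234616 (1003 bp, score 23.55), X 14561916 to 14562919 (1004 bp, score 5.11) and X 15608021 to 15609025 (1005 bp, score 9.26). Just outside lay I 14342522 to 14343521 (1000 bp, score 12.77), II 14600811 to 14601810 (1000 bp, score 11.75) and V 13649698 to 13650696 (999 bp, score 3.42).

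Domains stood high in the score ranking, and the 10 highest-scoring were not the widest. The score is the authors' own value for each peak, on a scale that the files do not name, and levels were compared only within 1 list; between lists only ranks were set against each other. The median domain score was 17.39 (quartiles 11.24 and 26.79, range 2.41 to 55.2), against 7.51 (4.57 and 13.06) for the narrower peaks. The 398 narrower peaks over 750 bp had a median of 14.6 (9.57 and 21.96). Of the domains, 93.1% scored at or above the series-wide median of 7.57, and 27 scored below it. Domains made up 0.0730% of the lowest 1369 peaks of the list by score, which is 1 domain, and 10.7% of the highest 1369, which is 147. Among the 393 domains width and score had a Spearman's rho of 0.13, and over all 13690 series-wide peaks the value was 0.46. The rule restricts the range of widths among the domains, which by itself can lower rho. Nothing is therefore inferred from the difference. Both values of a peak come from the same call on the same reads, so these correlations describe the list. No domain was both among the 10 widest and among the 10 highest-scoring. Sets this small among 393 domains would seldom share a member in any case, so nothing is inferred from this. Median scores were 16.58 for the domains up to 1500 bp, 19.71 for those up to 2500 bp and 18.64 for the wider ones. Wider domains thus did not score lower as a group.

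**Figure D1:**
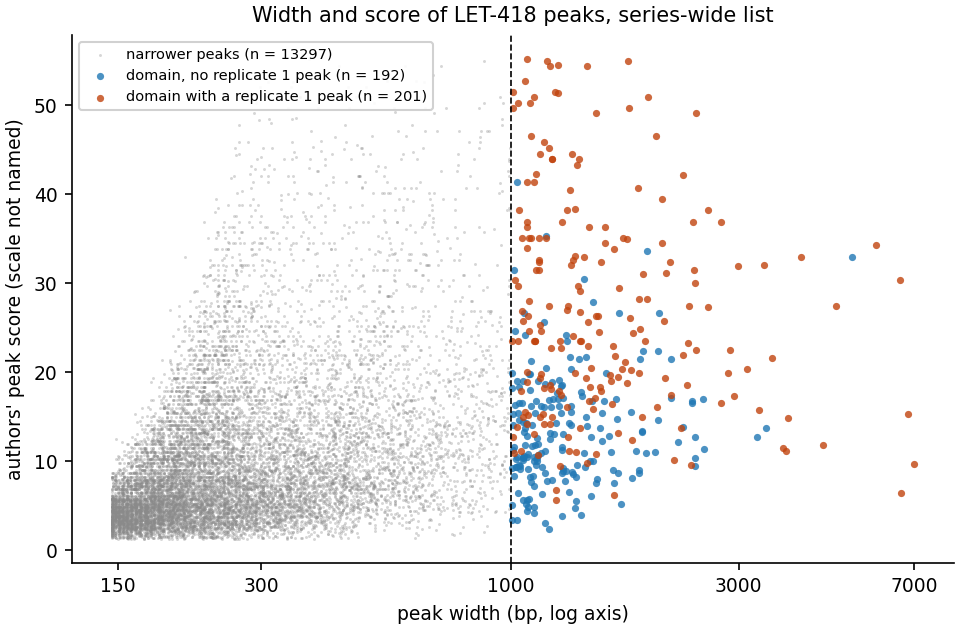
Width in bp (log axis) against the authors' score for all 13690 series-wide peaks; grey points are the 13297 narrower peaks, blue points the 192 domains without a replicate 1 peak and orange points the 201 domains with one, and the dashed line marks 1000 bp. Domains reach the top score of 55.2 mainly at widths near 1 kb, and the 2 widest, of 6975 and 6783 bp, score 9.72 and 15.35. The 10 widest score from 6.46 to 34.24.

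The 10 widest domains lay on X (4), V (3), III (2) and II (1). The widest was X 16935999 to 16942973, of 6975 bp, with a series-wide score of 9.72. It was separated by only 50 bp from the domain X 16929431 to 16935948, of 6518 bp, which scored 30.36. Replicate 2 joined most of both in 1 peak of 12428 bp with a score of 111.42. Replicate 1 showed the same stretch as separate pieces, 6 in the left domain (top score 9.21, widest 855 bp) and 5 in the right one (top score 3.75, widest 594 bp). Those pieces covered 37.1% and 25.7% of the 2 domains.

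On III, the domain 6566882 to 6573664 (6783 bp, score 15.35) held 8 replicate 1 peaks, the most in any domain. The first of these was 1829 bp wide with a score of 4.83, and the others were 172 to 782 bp wide with scores of 1.53 to 3.3. Together they covered 64.5% of the domain. Replicate 2 divided it in 2 broad peaks of 2094 and 4631 bp, with scores of 25.46 and 30.27, which left a gap of 56 bp between them. The domain was thus broken up in both lists, and more finely in replicate 1.

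On V, the domain 3434576 to 3441142 (6567 bp) had the lowest series-wide score of the 10 widest, 6.46, which is below the median of all series-wide peaks. It was nevertheless among the domains best covered in replicate 1, where 5 peaks, 3 of them over 1 kb, filled 92.8% of it with scores of 1.41 to 4.53. Replicate 2 had a single peak of 6632 bp there with a score of 57.57. The next V domain by width, 9338532 to 9344353 (5822 bp, score 34.24), was 1 peak of 5935 bp in replicate 2 (score 101.51) and 6 peaks in replicate 1 with scores of 3.01 to 4.94. Another, V 723843 to 727887 (4045 bp, score 32.93), was 1 replicate 2 peak of 4061 bp (score 120.79) and 6 replicate 1 peaks with a top score of 5.56. In each of these V domains replicate 1 showed pieces of the stretch. In the order named, the pieces covered 92.8%, 49.2% and 62.6% of the domain.

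One of the widest domains had no counterpart in replicate 1. It was II 1235775 to 1240944 (5170 bp, score 32.92), which lay within a replicate 2 peak of 7199 bp with a score of 137.31. The remaining wide domains were weakly covered in replicate 1. The X domain 3111786 to 3116572 (4787 bp, score 27.4) was covered by 6.91%, X 2059409 to 2063918 (4510 bp, score 11.85) by 12.6% and III 1923331 to 1927141 (3811 bp, score 14.91) by 4.64%. In replicate 2 these 3 were covered by 100%, 95.7% and 98.6%. Of the 10 widest domains, 6 were 1 broad peak in replicate 2 and 4 were several peaks with a broad one among them.

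The 10 highest-scoring domains were much narrower, from 1012 to 1755 bp, and 8 of them lay in the left part of III. All 10 were called in both replicates. The top domain, III 2126669 to 2127751 (1083 bp, score 55.2), was 2 narrow peaks in each replicate. In replicate 1 these scored 4.83 and 15.78, and in replicate 2 they scored 10 and 104.57. The pieces covered 47.0% of it in replicate 1 and 65.9% in replicate 2, so neither replicate alone showed a region over 1 kb. By contrast, III 1040510 to 1041701 (1192 bp, score 54.92) was 1 broad peak in both, of 1139 bp (score 19.64) and 1187 bp (score 121.27). III 2130050 to 2131804 (1755 bp, score 54.92) was 1 peak of 1191 bp in replicate 1 (score 19.61) and 2 peaks in replicate 2, the wider of 1537 bp. Only V 19933060 to 19934131 (1072 bp, score 52.73) and IV 9196214 to 9197468 (1255 bp, score 51.33) among these 10 lay elsewhere than on III. Their top scores were 5.29 and 13.32 in replicate 1 and 152.91 and 160.79 in replicate 2. Of the 10, 3 had no peak over 1 kb in replicate 2. Peaks of equal score existed among the narrower ones, such as II 732402 to 732778 (377 bp, score 55.2), which scored 19.64 and 155.89 in replicates 1 and 2.

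In replicate 2, nearly every domain was present and most were a single broad peak. Of the 393 domains, 392 overlapped a replicate 2 peak by at least 1 bp, or 99.7% (98.6 to 99.96). The background over all series-wide peaks was 93.3%, and the value for the narrower peaks was 93.1% (92.7 to 93.6). Replicate 2 peaks covered 96.2% of the domain bases and 90.03% of the bases of narrower peaks. At least 50% of the domain was covered in 391 of 393, where the background was 92.4%, and the midpoint lay in a replicate 2 peak in 386, where the background was 91.9%. The 1 domain with no peak in either replicate was I 13883838 to 13884842 (1005 bp), with a low series-wide score of 3.44. A single replicate 2 peak over 1 kb stood for 306 domains, or 77.9% (73.5 to 81.7), and 6.33% of all series-wide peaks met the same rule, which a wide region meets more easily. A further 37 domains were several peaks with a broad one among them, 42 were several narrow peaks and 7 were 1 narrow peak. In all, 343 domains touched a replicate 2 peak over 1 kb, against a background of 6.63%.

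Where a domain was 1 broad replicate 2 peak, both lists gave similar widths. The replicate 2 peak had a median of 1.04 times the domain's width (quartiles 0.999 and 1.32). It was wider in 225 of the 306 domains, narrower in 78 and equal in 3, and exceeded 1.5 times the domain's width in 58. The highest ratio was 6.10. Some domains were parts of a longer replicate 2 region: 15 replicate 2 peaks each spanned 2 domains, which accounts for 30 of the 393. The II peak 10541976 to 10548364 of replicate 2 (6389 bp, score 91.45) was one of them and held 4 series-wide peaks, 2 of which were domains.

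Replicate 1 showed 201 of the 393 domains, and nearly always as narrow pieces. The share that overlapped a replicate 1 peak was 51.1% (46.2 to 56.1), where the background was 12.1% and the narrower peaks gave 10.98% (10.5 to 11.5). The 398 narrower peaks over 750 bp, nearest to the domains in width, gave 37.2% (32.6 to 42.0). The 201 domains were also called in replicate 2. The form was 1 broad peak in 13 domains (background 0.095%), several peaks with a broad one in 9, several narrow peaks in 86 and 1 narrow peak in 93, and 192 had none. Only 22 domains touched a replicate 1 peak over 1 kb (background 0.161%). The 201 domains called in replicate 1 had a median of 37.4% of their length covered there (quartiles 21.6 and 64.7), whereas called narrower peaks had 61.2% (45.8 and 71.1). In the most frequent pairing of forms, 166 domains were 1 broad peak in replicate 2 and absent from replicate 1. Another 66 were 1 broad peak in replicate 2 and 1 narrow peak in replicate 1, and 57 were 1 broad peak in replicate 2 and several narrow peaks in replicate 1.

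**Figure D2:**
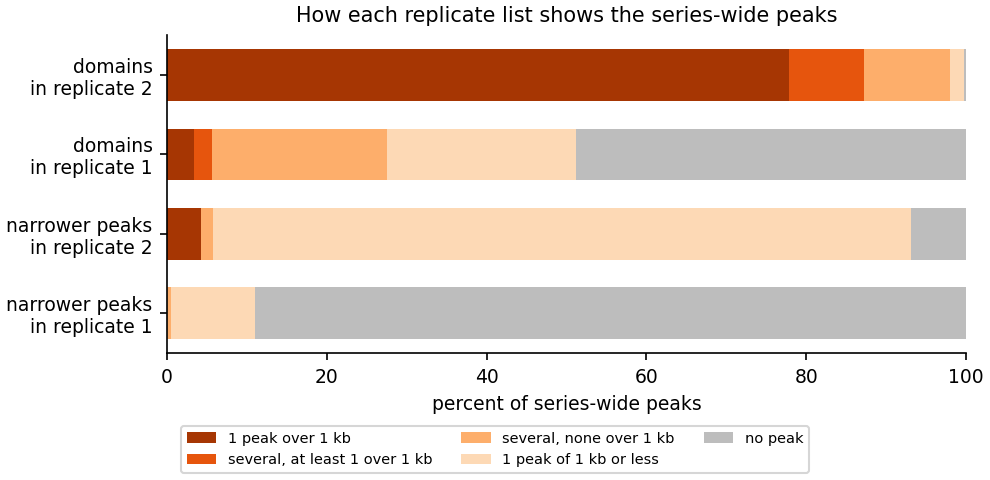
Percent of the 393 domains and of the 13297 narrower peaks that each replicate list shows as 1 peak over 1 kb, as several peaks with or without one over 1 kb, as 1 peak of 1 kb or less, or not at all. Domains are 1 broad peak in replicate 2 in 77.9% of cases and in replicate 1 in 3.31%, where 48.9% have no peak.

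The high share of domains called in replicate 1 depended on how a call was counted. A wide region meets an overlap of 1 bp more easily than a narrow one. The share fell to 19.1% (15.5 to 23.3) when at least 50% of the domain had to be covered (background 7.88%), and to 23.9% (19.97 to 28.4) when its midpoint had to lie in a replicate 1 peak (background 9.67%). Domains also score higher. Within the highest 2738 series-wide peaks by score, 20% of the list, 70.2% of 235 domains (64.1 to 75.7) and 48.5% of 2503 narrower peaks (46.6 to 50.5) overlapped replicate 1. By the midpoint, the domains of this group had the lower share, with 34.9% (29.1 to 41.2) against 41.4% of narrower peaks (39.5 to 43.3), and these intervals overlapped. The bases covered among those peaks were close, at 32.4% and 30.5%. Over the whole list they were 23.9% of domain bases and 8.90% of the bases of narrower peaks. In the 20% of the list just below, the domains had the higher value by every measure. There, 31.7% of 101 domains (23.4 to 41.3) and 7.09% of 2637 narrower peaks (6.17 to 8.13) overlapped replicate 1, with 10.3% against 4.51% of bases. By the midpoint the shares were 9.90% (5.47 to 17.3) and 5.61% (4.80 to 6.56), and these intervals overlapped. In the middle 20% of the list the midpoint gave 5.41% of 37 domains (1.495 to 17.7) and 1.15% of narrower peaks (0.810 to 1.62). These intervals also overlapped. In that group 14.3% of domain bases and 1.08% of the bases of narrower peaks were covered. Only 3 of the 37 domains overlapped replicate 1. Most of their 7674 covered bases lay in a single domain, V 3434576 to 3441142 (6567 bp, 92.8% covered). The score groups are not matched on score within themselves. Of the domains in the highest 20% of the list, 147 of 235 were in its highest 10%, and of the narrower peaks 1222 of 2503 were.

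Domains called in replicate 1 scored higher in the series-wide list than the others. Their median series-wide score was 24.88 (quartiles 17.88 and 35.09, 201 domains), against 12.74 (9.29 and 16.99, 192 domains). This held for narrower peaks too, with 24.1 for the 1460 called ones and 6.8 for the other 11837. For the domains, the median top score in replicate 2 was 54.65 in called ones against 45.53. The quartiles, 29.22 and 75.08 against 25.88 and 64.17, overlapped widely. Widths also overlapped, with medians of 1395 and 1221 bp. Among the 201, Spearman's rho between the series-wide score and the top replicate 1 score was 0.74, and between the top scores in both replicates it was 0.35. Over the 392 domains called in replicate 2, the rho between the series-wide score and the top replicate 2 score was 0.55. These lists may share reads, and the points share libraries, so the correlations describe the lists and have no test. The share called in replicate 1 rose with width, from 43.9% of the 262 domains up to 1500 bp to 61.2% of the 103 up to 2500 bp and 82.1% of the 28 wider ones. Bases covered rose less, from 20.3% to 25.9% and 30.4%. The rise began below the limit of 1000 bp. The 398 narrower peaks over 750 bp gave 37.2% called and 17.1% of bases covered. It was thus gradual over width and not particular to domains.

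Replicate 1 peaks lay within the borders of the domains, whereas replicate 2 peaks often passed them. All 355 replicate 1 peaks that touched a domain lay wholly inside it. They were 18.8% of the replicate 1 list, with a median width of 289 bp and a median score of 4.38, and the 1528 replicate 1 peaks at narrower peaks had a median width of 201 bp and a median score of 5.42. Of the latter, 1521 lay wholly inside. In replicate 2, 470 peaks touched a domain, or 2.40% of that list, and 319 of them reached beyond its border. The median width of the 470 was 1192 bp. Passing the border was not particular to domains. Of the 12012 replicate 2 peaks at narrower peaks, 10120 did so. Wholly inside lay 32.1% of the replicate 2 peaks at domains and 15.8% of those at narrower peaks. Replicate 1 coverage was low at both borders of the domain, with 4.07% of domains at the outermost of 20 relative positions on either side, and changed little between positions of 0.125 and 0.825, where it was 22.6 to 28.0%. For the 201 called domains alone the range between those positions was 44.3 to 54.7%. Called narrower peaks showed a single maximum near their centre. A replicate 1 peak wholly inside a narrower peak has less room to lie off its centre than in a domain. Nothing is therefore inferred from this difference in shape.

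**Figure D3:**
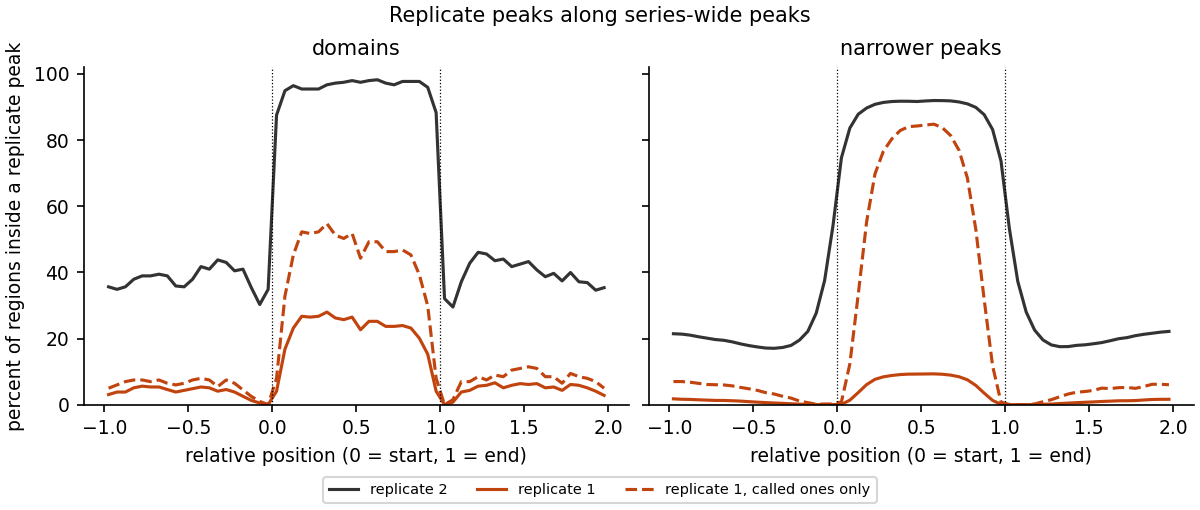
Percent of series-wide peaks with a replicate peak at each relative position, from 1 width before the start (0) to 1 width past the end (1, dotted lines), for the 393 domains (left) and the 13297 narrower peaks (right); dashed lines are the regions called in replicate 1. Replicate 2 covers over 94% of domains from 0.075 to 0.925. Between 0.125 and 0.825 replicate 1 gives a plateau of 22.6 to 28.0% in all domains and 44.3 to 54.7% in called ones. Called narrower peaks have a centred maximum, and their short length leaves a replicate 1 peak little room off the centre.

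A small set of domains was well covered in both replicates. Replicate 1 filled at least 90% of 8 domains, or 2.04% (1.04 to 3.96). The background was 0.139%, and the narrower peaks gave 0.083%. All 8 were 1 broad peak in replicate 2, as were 77.9% of all domains. The highest value was 96.5% at I 1121450 to 1122463 (1014 bp), a domain of moderate series-wide score (10.92) with scores of 6.63 and 33.28 in replicates 1 and 2. III 1155116 to 1156625 (1510 bp, score 49.06) was covered by 92.8%, IV 2255522 to 2257094 (1573 bp, score 36.31) by 91.1% and III 267029 to 268475 (1447 bp, score 25.7) by 90.7%. V 3652888 to 3655645 (2758 bp, score 36.92) was 1 peak of 2500 bp in replicate 1 (score 9.89) and 1 of 2855 bp in replicate 2 (score 59.65). I 13600472 to 13601890 (1419 bp, score 32.95) had the joint highest replicate 1 score of all domains, 19.64, and 122.11 in replicate 2. In all, 22 domains touched a peak over 1 kb in both replicates. Of these, IV 2713164 to 2716556 (3393 bp, score 32.07) was among the widest, with 4 replicate 1 peaks and 2 replicate 2 peaks.

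Broad peaks of the replicate lists were not all domains. All 24 replicate 1 peaks over 1 kb lay in a domain. Of the 566 replicate 2 peaks over 1 kb, 331 overlapped a domain, or 58.5% (54.4 to 62.5), with a median width of 1458 bp and a median score of 48.52. The other 235 had medians of 1176 bp and 24.19. The series-wide list showed 161 replicate 2 broad peaks as several narrow peaks, 64 as 1 narrow peak and 10 not at all. The 2 examples that follow were chosen after their values were seen. II 1148362 to 1151889 of replicate 2 (3528 bp, score 19.09) was 7 narrow series-wide peaks that covered 51.1% of it. II 3466518 to 3469422 (2905 bp, score 14.16) had no series-wide peak and was the widest of the 10.

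Domains were unevenly spread over the chromosomes, with the highest density on III and the lowest on X. Narrower peaks were also densest on III (193 per Mb) but sparsest on V (101.03 per Mb, against 104.9 on X). III had 84 domains, or 6.09 per Mb (95% exact Poisson interval 4.86 to 7.54), and X had 38, or 2.14 per Mb (1.52 to 2.94), a ratio of 2.84. I had 70 (4.64 per Mb), II 69 (4.52), IV 64 (3.66) and V 68 (3.25). The interval of III did not overlap those of IV, V and X, but it overlapped those of I (3.62 to 5.87) and II (3.51 to 5.72). That of X overlapped those of IV (2.82 to 4.67) and V (2.52 to 4.12). Those of I and II, and of IV and V, also overlapped. Relative to all peaks of a chromosome, domains were 2.75 to 3.12% of the peaks on each autosome and 2.00% on X (1.46 to 2.74). The interval of X overlapped that of each autosome. X held 9.67% of the domains (7.13 to 12.99) and 13.97% of the narrower peaks (13.4 to 14.6). Of the 398 narrower peaks over 750 bp, 9.05% lay on X. Weighted by length the X share was 11.2% of domain bases and 13.4% of the bases of narrower peaks. In the replicate 1 list the order was the other way, with 2 of 24 broad peaks (8.33%) and 4.51% of the narrower peaks on X. Domains on X had a median score of 13.79 (quartiles 9.81 and 16.05), against 18.31 (11.54 and 27.67) on the autosomes. Lower scores on X were not particular to domains. At or above the series-wide median score, X held 11.3% of the narrower peaks and 9.02% of the domains. Only 10 of the 38 X domains, 26.3% (14.97 to 42.0), overlapped replicate 1, against 55 of 84 on III, 65.5% (54.8 to 74.8). Among narrower peaks these values were 3.44% and 14.8%. The highest-scoring X domain was X 188278 to 190123 (1846 bp, score 40.72), where replicate 1 covered 80.5%.

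Within the autosomes the domains leaned to the outer parts. Each autosome was divided in 3 equal parts, and the middle parts held 74 of 355 autosomal domains, 20.8% (16.9 to 25.4), against 25.1% (24.3 to 25.9) of the narrower peaks. The difference lay within the counting error of the domains. III had 51 domains in its left part, 9 in the middle and 24 on the right, so that 60.7% lay on the left, against 46.3% of its narrower peaks. IV was similar, with 40, 11 and 13 (62.5% on the left, against 50.2%). II leaned to the right, with 18, 15 and 36 (52.2% on the right, against 37.02%), and V had 18, 18 and 32. I was nearly even (25, 21 and 24), as was X (13, 13 and 12). Domains in the middle parts had a median score of 15.83, against 20.29 on the left and 18.29 on the right. Those in the middle were called in replicate 1 in 39.2% of cases (28.9 to 50.6), those on the left in 60.5% (52.6 to 67.9) and those on the right in 54.3% (45.7 to 62.6). The order was not particular to domains. Over all autosomal series-wide peaks the shares were 7.96% in the middle, 17.2% on the left and 13.2% on the right. Narrower peaks gave 7.15%, 15.7% and 11.8%.

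**Figure D4:**
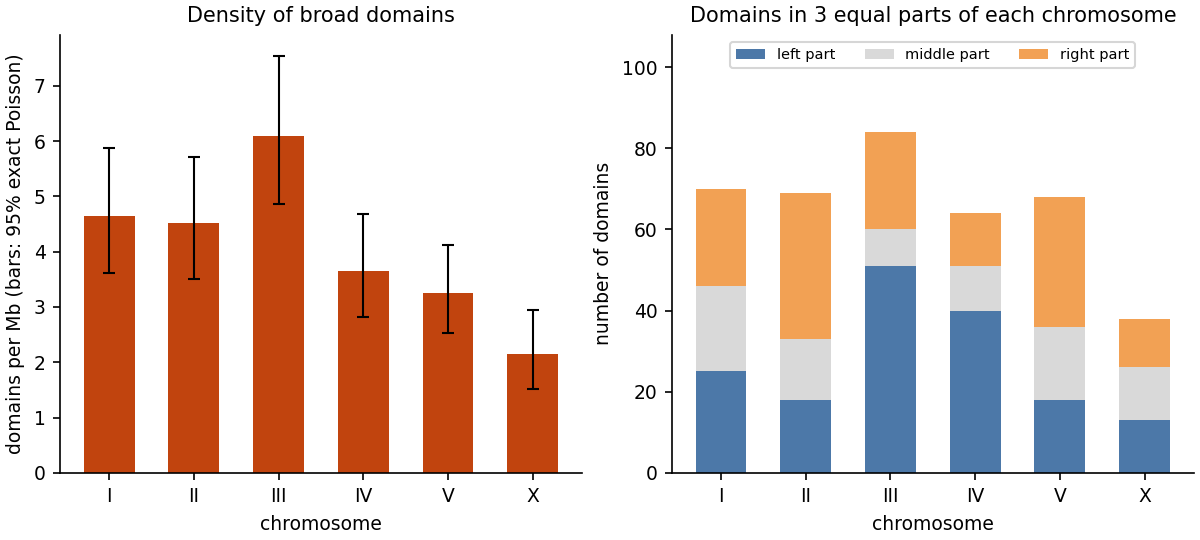
Domains per Mb on each chromosome with 95% exact Poisson intervals (left), and number of domains in the left, middle and right of 3 equal parts of each chromosome (right). III has the highest density, 6.09 per Mb, with 51 of 84 domains in its left part, and X the lowest, 2.14 per Mb, spread evenly over its parts.

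The number of domains varied along the chromosomes, with a few dense stretches and most domains outside them. Of 197 whole bins of 500 kb, 62 held no domain and the median was 1. The bin III 1.5 to 2 Mb held 13, IV 2.5 to 3 Mb held 10, V 20 to 20.5 Mb held 10, and II 1 to 1.5 Mb and III 0 to 0.5 Mb held 9 each. Across bins the number of domains and of narrower peaks had a Spearman's rho of 0.56, a description of bins that share lists. The densest bins by domains were not always dense in narrower peaks: II 10.5 to 11 Mb had 8 domains and 65 narrower peaks, and III 1.5 to 2 Mb had 13 and 258.

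Many domains had another domain close by. The gap to the nearest other domain, edge to edge, had a median of 14502 bp (quartiles 1292 and 111499), and the gap from a narrower peak to its nearest domain had a median of 80929 bp (20267 and 225865). A second domain lay within 5 kb of 143 domains, 36.4% (31.8 to 41.3). Over all series-wide peaks 12.2% had a domain, other than themselves, within 5 kb, and over the narrower peaks 11.5% (10.96 to 12.04). Of the 387 gaps between neighbouring domains, 30 were at most 200 bp, 15 lay between 0.2 and 1 kb, 28 between 1 and 2 kb, and 188 exceeded 100 kb. Domains were also close to peaks of any width. Another series-wide peak lay within 200 bp of 52.4% of domains (47.5 to 57.3) and of 25.6% of narrower peaks (24.9 to 26.4). The shortest gap in the list was 37 bp.

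**Figure D5:**
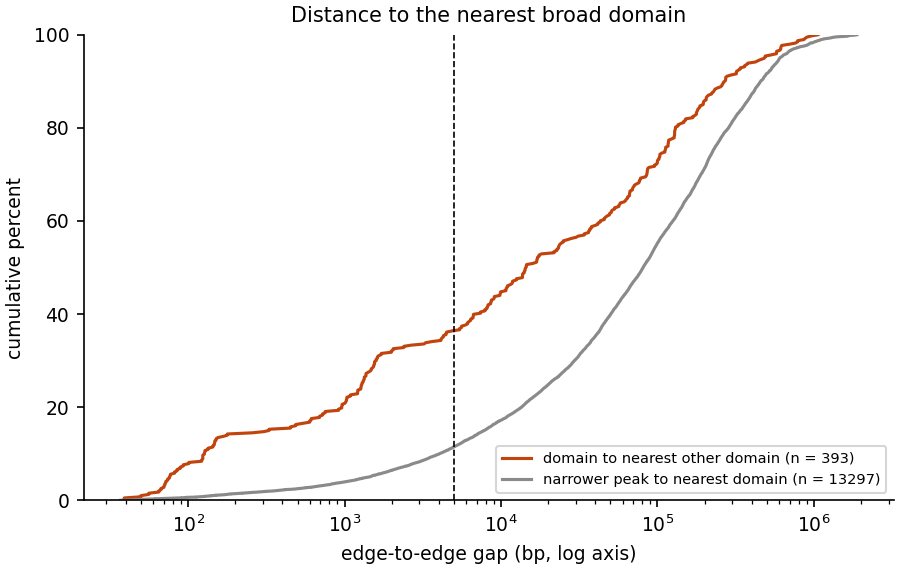
Cumulative percent of the 393 domains (orange) and the 13297 narrower peaks (grey) by the edge-to-edge gap in bp (log axis) to the nearest other domain; the dashed line marks 5 kb. At 5 kb the curves stand at 36.4% and 11.5%.

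Domains with gaps of at most 5 kb formed 57 runs of 2 or more, which held 143 domains, and 21 of these runs had 3 or more. The runs of 3 or more lay on III (5), IV (5), II (4), V (3), X (3) and I (1). The longest was on II from 10542471 to 10559458, where 6 domains covered 66.5% of 16988 bp with scores of 9.45 to 27.28. Replicate 2 had 9 peaks there, 5 of them over 1 kb, with scores of 13.36 to 91.45. Replicate 1 had 7 peaks, none over 1 kb, with scores of 2.9 to 6.02, and 3 of the 6 domains had none. The run was thus broad in replicate 2 and a scatter of narrow peaks in replicate 1.

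A pair of runs on the left part of IV differed from each other in replicate 1. The run from 2705135 to 2718910 held 4 domains over 13776 bp with scores of 25.75 to 34.49. All 4 were called in replicate 1, with 23.3 to 77.9% of their length covered, and the run held 10 replicate 1 peaks, 2 of them over 1 kb. The run from 1057602 to 1070834 held 4 domains over 13233 bp with scores of 10.4 to 41.35. Only the first of these, 1057602 to 1059961 (2360 bp, score 27.43), was called in replicate 1, with 47.7% covered. The last, 1069804 to 1070834 (1031 bp), had the highest score of the run, 41.35, and a replicate 2 score of 115.63, and no replicate 1 peak. The difference between the runs was not tested.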

How the data were processed

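The authors called the peaks with MACS on WormBase WS220, per the file headers. The submitters' processing notes name BWA and ce10. For the calling threshold, the use of the inputs and the making of the series-wide list, no source used here gives any detail. The authors deposited a score for each peak with no named scale. Start and end were used as deposited, with no filter. The domains and all comparisons were chosen with earlier results of these data known.

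Widths, overlaps, forms, gaps and positions were computed in Python 3.11.15 (pandas 2.3.3, SciPy 1.17.1, NumPy 2.4.6; figures in Matplotlib 3.10.9), and the functions were tested on simulated data. Overlap meant at least 1 bp. As a lower bound of its length, each chromosome was taken to end with its last peak. Ties in score were ordered by position when the list was divided by score. No test was run, since width chose the domains and all lists may share reads. Regions named in the text were the 10 widest and 10 highest-scoring domains, the largest runs, domains broad in both replicates and the neighbours of the limit, except where stated; the 8 domains covered by at least 90% in replicate 1, the highest-scoring X domain and the densest bins were chosen after their values were seen. Genes and sequences at the domains need WS220 annotation and are not analysed here.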

Additional observations from a re-analysis of the deposited data

How the results depend on the processing

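No paired analysis was possible because the input samples have no list of values. The comparison with narrower peaks kept its direction in 46 of 47 alternatives. The exception was the X share in the replicate 1 list (8.33% of broad against 4.51% of narrower peaks). The midpoint rule within the highest 20% by score was not among the 47. There the direction also turned, with 34.9% of domains and 41.4% of narrower peaks in a replicate 1 peak. In 27 of the 47 alternatives the domain value stayed within its interval. With a limit of 750 bp, 44.1% were called in replicate 1, 48.4% had another within 5 kb and the median score was 16.22; with 1500 bp, 65.6%, 28.2% and 19.71, and 100% were called in replicate 2. At or above the median score 100% were called in replicate 2. With 50% covered 19.1% were called in replicate 1; by the midpoint 23.9% and, in replicate 2, 98.2%. Counting only replicate 2 peaks at least 50% inside the domain, 71.2% were 1 broad peak. For broad peaks of 1 replicate list, the middle parts held 4.55 to 26.2% and 20.8 to 40.5% had another within 5 kb; without replicate 1 the middle share (26.2%) lay near that of narrower peaks (26.3%). The share with a neighbour was 43.7% after joining gaps up to 200 bp, 20.6% within 1 kb and 52.9% within 20 kb. In the highest 20% by score, an alternative chosen after seeing the data like those without III and weighted by length, 70.2% were called and 32.4% of bases covered in replicate 1. Depth is unknown, so absence from replicate 1 does not show absence of LET-418.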

Other observations

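Joining series-wide peaks with gaps of at most 200 bp gave 762 regions over 1 kb, of which 575 came from more than 1 peak. Of these 762 regions, 327 held 1 domain, 29 held 2 or more and 406 held none, so that more stretches over 1 kb were made up of narrower peaks alone than held a domain. The widest joined region was X 16929431 to 16942973 (13543 bp, 2 peaks), followed by II 10542005 to 10552828 (10824 bp, 6 peaks) and III 346251 to 353919 (7669 bp, 7 peaks). How many of the short gaps follow from the peak caller was not tested.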
